A study of Homo sapiens with 12 samples.

Results

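Syndecans and glypicans were followed as mRNA in human adipocytes with and without knockdown (KD) of linc-ADAIN, an adipose long intergenic noncoding RNA, at rest and under lipopolysaccharide (LPS). The 8 genes were SDC1, SDC2, SDC3, SDC4, GPC1, GPC3, GPC4 and GPC6, taken by symbol from 28901 named genes. The family was chosen by a measured value: SDC4 ranked first of 17173 genes, by F statistic, for the interaction of linc-ADAIN KD with LPS. All values of SDC4 are therefore descriptions with no test, whereas the other 7 genes came in through their family names and were tested. The cells were ASC52telo hTERT, an adipose stromal line immortalized with telomerase, carrying a lentiviral pLVX-shRNA2 vector with ZsGreen and sorted for ZsGreen. Cells with scramble shRNA (scramble) or linc-ADAIN shRNA (KD) were cultured for 14 days, first in differentiation medium with insulin, dexamethasone, isobutylmethylxanthine and rosiglitazone and then in maintenance medium without the latter pair, and each was collected untreated or after LPS (100 ng/mL, 4 h). Each group had 3 libraries of polyA RNA from the same line with a single shRNA per arm. The paper's legends describe its RNA-seq of KD against scramble as a single experiment in triplicate. P-values thus measure the spread between these libraries, which may be technical, and not the spread between independent experiments. The level of linc-ADAIN was not analysed here.

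Syndecans and glypicans are the main cell surface carriers of heparan sulfate, a long sulfated sugar chain. Syndecans span the membrane and signal through short cytoplasmic tails, and glypicans are held in the outer leaflet by a glycosylphosphatidylinositol anchor. Their chains bind growth factors, chemokines, lipoprotein lipase and matrix proteins, hold them at the cell surface and present them to their receptors, and proteases or lipases can release the whole ectodomain. In adipose tissue, heparan sulfate is known as a site where lipoprotein lipase and fibroblast growth factors are retained.

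The sequence just before the start site of 4 of these genes is shown for SDC4, whose value chose the family, and for SDC3, GPC1 and GPC6, which fell with KD both without and with LPS. Each run is the 250 bases upstream of the start site in RefSeq on GRCh38.p14, written 5′ to 3′ on the strand of the gene. No annotated exon of the same gene lay in it, and exons of other genes were not checked. Capitals mark a match to the NF-kB decamer consensus.
SDC4 (chr20:45348425-45348674, minus strand): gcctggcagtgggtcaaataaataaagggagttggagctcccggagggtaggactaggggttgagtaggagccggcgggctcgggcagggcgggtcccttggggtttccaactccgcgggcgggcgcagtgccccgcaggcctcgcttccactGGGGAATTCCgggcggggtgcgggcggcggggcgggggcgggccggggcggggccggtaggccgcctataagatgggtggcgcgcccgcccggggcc
SDC3 (chr1:30908759-30909008, minus strand): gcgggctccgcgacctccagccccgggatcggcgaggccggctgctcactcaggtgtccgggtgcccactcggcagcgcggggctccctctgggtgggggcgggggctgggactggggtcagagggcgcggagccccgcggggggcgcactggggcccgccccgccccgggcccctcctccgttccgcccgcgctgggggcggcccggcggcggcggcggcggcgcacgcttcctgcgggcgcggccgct
GPC1 (chr2:240435413-240435662, plus strand): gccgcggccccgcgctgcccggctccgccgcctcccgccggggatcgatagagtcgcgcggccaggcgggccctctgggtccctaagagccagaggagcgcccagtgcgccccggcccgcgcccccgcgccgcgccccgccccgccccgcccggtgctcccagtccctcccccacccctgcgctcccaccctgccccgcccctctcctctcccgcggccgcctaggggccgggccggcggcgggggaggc
GPC6 (chr13:93226557-93226806, plus strand): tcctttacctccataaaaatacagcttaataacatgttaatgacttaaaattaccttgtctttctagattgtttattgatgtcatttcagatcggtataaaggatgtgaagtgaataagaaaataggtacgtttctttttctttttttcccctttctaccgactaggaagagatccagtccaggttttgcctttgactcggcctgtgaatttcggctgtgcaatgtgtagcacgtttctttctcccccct
The SDC4 sequence held 1 NF-kB match, GGGGAATTCC, starting 97 bases before the start site, and 8 GC boxes (GGGCGG on either strand). SDC1 has 2 start sites in RefSeq, and the sequence before one of them also held an NF-kB match, GGGGCGTTCC, starting 103 bases before that start site. It is not printed in full because 119 of its bases overlap annotated exons of SDC1. The SDC3 sequence held 5 GC boxes, the GPC1 sequence held 4, and the GPC6 sequence held a TATAAA starting 155 bases before its start site and no GC box. SDC3, GPC1 and GPC6 held no NF-kB match, and none of the 4 printed sequences held an AP-1 motif (TGACTCA or TGAGTCA). Motifs were searched on both strands, and in SDC4 a GC box began at the base after the NF-kB match, 87 bases before the start site. Of 35116 upstream sequences of the same length, 9.96% held the NF-kB consensus, 42.6% a GC box, 10.7% TATAAA and 4.2% an AP-1 motif. A match is a run of letters and not a measured binding site.

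The 8 genes lie on 6 chromosomes of GRCh38 (GENCODE release 44). SDC1 spans chr2:20200797-20225433 and SDC3 spans chr1:30869466-30908758, both on the minus strand, SDC2 spans chr8:96493813-96611790 on the plus strand, and SDC4 spans chr20:45325288-45348424 on the minus strand. GPC1 spans chr2:240435663-240468076 and GPC6 spans chr13:93226807-94408020, both on the plus strand. GPC3 (chrX:133535745-133987100) and GPC4 (chrX:133300103-133415489) are neighbours on the minus strand, 120 kb apart. Of the 8 genes, GPC6 alone had exon overlap on the opposite strand, 511 bases with the lncRNA ENSG00000278177, which is not a row of the count table.

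Library totals over named genes were 28.4 to 53.8 M (mega) counts, and 3 counts correspond to 0.0557 to 0.106 per M counts of a library, before any scaling. CPM are the counts of a gene per M counts of its library, after scaling of the libraries by the TMM method. The correlation of log2 CPM between libraries of a group was 0.971 to 0.986. The adipocyte label was checked on 8 markers, of which ADIPOQ, FABP4, PLIN1, PLIN4, CIDEC and PPARG had at least 548 counts in every library, whereas LPL reached at most 82 counts and LEP at most 21. The LPS check genes CXCL8, IL6, CCL20, TNFAIP3 and NFKBIA rose in both shRNA arms (5 of 5 in each, edgeR's quasi-likelihood test, adjusted p under 0.05).

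Of the 7 genes other than SDC4, 6 had at least 10 counts in total in each comparison and were put through the quasi-likelihood test of edgeR. P-values were adjusted by Benjamini-Hochberg over all genes tested, and a call is an adjusted p under 0.05. GPC4, with 2 counts in all libraries together, was not tested. In KD against scramble without LPS, SDC3, GPC1 and GPC6 fell (3 of 6, where 15.1% of all genes were called lower) and SDC1 rose (1 of 6, where 12.1% were called higher). In KD against scramble with LPS, SDC3, GPC1 and GPC6 fell (3 of 6, against 14.2% of all genes called lower and 12.7% called higher). LPS in scramble cells gave 0 calls among the 6, against 5.9% of all genes called higher and 8.38% called lower. In that comparison 1 of the 6, SDC2, had an unadjusted p under 0.05 in edgeR, and DESeq2 called 1, also SDC2. LPS in KD cells gave lower SDC1 and GPC1 (2 of 6, against 6.03% called lower and 5.32% called higher). Scaling by library size only, in place of TMM, moved the median of all genes by 0.10 in KD without LPS, 0.08 in KD with LPS, -0.04 in LPS in scramble and -0.05 in LPS in KD on the log2 scale. In the same order it turned the share of all calls that were higher from 44.5% to 61.4%, from 47.2% to 59.2%, from 41.3% to 32.7% and from 46.9% to 35.2%. The number of calls among the 6 genes stayed at 4, 3 and 2 in the KD comparisons and in LPS in KD, and went from 0 to 1 in LPS in scramble. Comparisons that have a group in common share its libraries, so their values are given side by side and not as separate evidence.

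**Figure D1:**
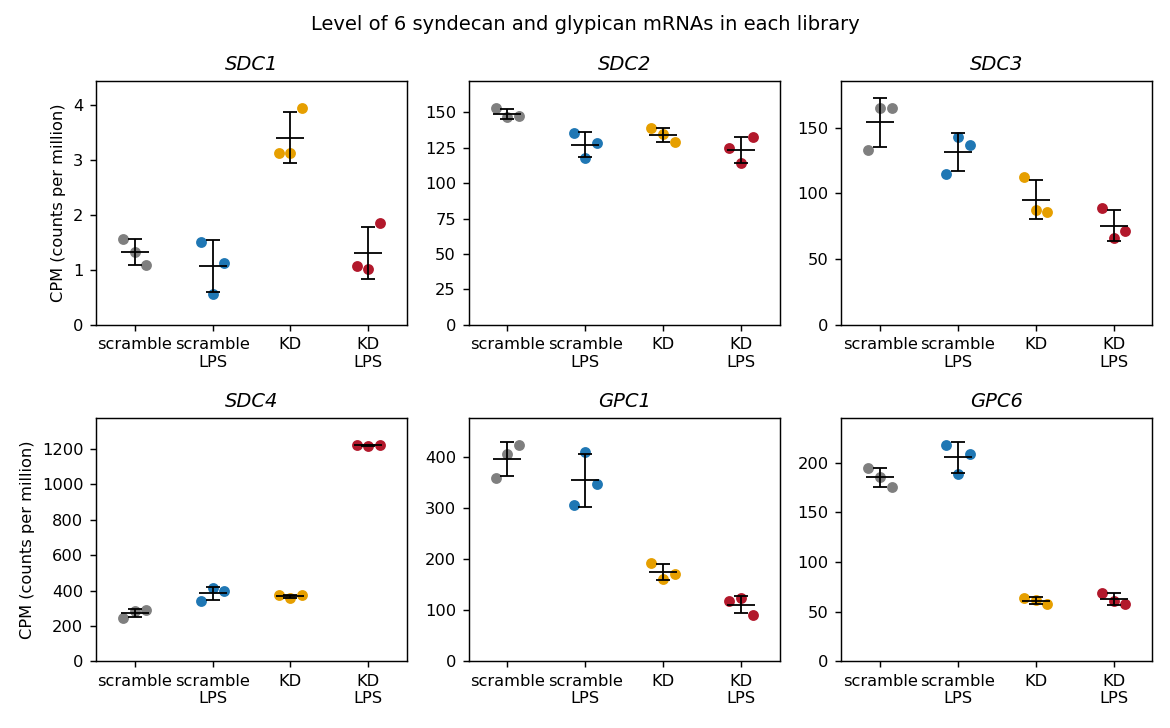
Level in CPM (linear axis from 0, its own scale for each gene) of 6 syndecan and glypican mRNAs in the 12 libraries, with points for libraries and black bars for the mean and SD of 3 libraries. SDC4 stood at 1216 to 1224 CPM in KD cells with LPS and at 248 to 414 CPM elsewhere, and GPC1 and GPC6 were lower in each KD library than in each scramble library.

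SDC4, the most widely expressed syndecan and a partner of integrins in focal adhesions, was at 248, 283 and 291 CPM in the 3 scramble libraries. It was at 342, 414 and 400 CPM in scramble with LPS and at 375, 359 and 373 CPM in KD. In KD with LPS it was at 1224, 1216 and 1222 CPM. The KD libraries with LPS were thus above all others, those of KD and of scramble with LPS overlapped, and the scramble libraries were the lowest. The means were 274 ± 22.8, 385 ± 37.9, 369 ± 8.63 and 1221 ± 4.10 CPM (SD, n = 3 each, in the same order of groups). Mean SDC4 in KD was 1.35 times that in scramble without LPS and 3.17 times with LPS. Mean SDC4 with LPS was 1.41 times that without LPS in scramble cells and 3.31 times in KD cells. On the log2 scale these 4 differences were 0.43 (standard error 0.079), 1.66 (0.079), 0.50 (0.093) and 1.73 (0.062).

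The interaction, which is the log2 LPS response in KD minus that in scramble, was 1.24 for SDC4 (standard error 0.11). The next gene in the same ranking was FGF2, fibroblast growth factor 2, a secreted factor that binds heparan sulfate, with an interaction of 1.26 (standard error 0.13). FGF2 ranged from 382 to 424 CPM in scramble, 397 to 485 in scramble with LPS, 332 to 396 in KD and 866 to 1004 in KD with LPS. FGF2 is named here only for its place in the ranking that also chose the family, and a link between the 2 genes was not tested. For the other syndecans and glypicans the interaction was -1.07 (standard error 0.55) for SDC1, 0.11 (0.11) for SDC2, -0.11 (0.18) for SDC3, -0.50 (0.16) for GPC1 and -0.11 (0.12) for GPC6, given with no test. GPC3, with libraries at 0 in each group, is left out of these values.

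**Figure D2:**
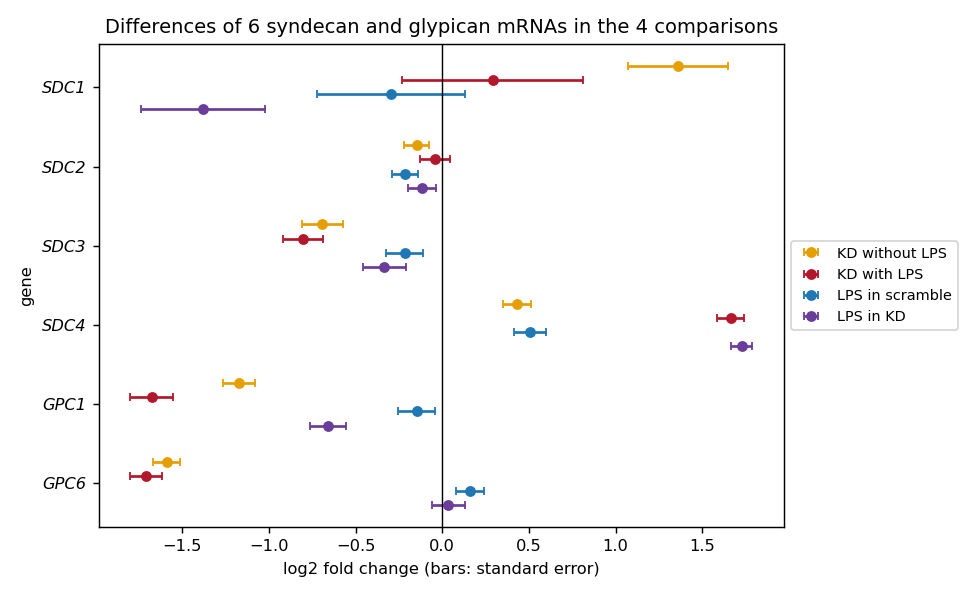
Log2 fold change of 6 syndecan and glypican mRNAs in the 4 comparisons of groups, with bars for the standard error of each fit on 6 libraries. SDC4 lay to the right of 0 in all 4 comparisons, at 0.43 to 1.73, and GPC1 and GPC6 lay between -1.17 and -1.71 in KD against scramble.

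SDC1, the syndecan of epithelia and plasma cells, was the least abundant of the syndecans, with 17 to 169 counts per library. It was at 1.56, 1.33 and 1.10 CPM in scramble, 1.51, 0.56 and 1.12 CPM in scramble with LPS, and 3.14, 3.14 and 3.95 CPM in KD. In KD with LPS it was at 1.08, 1.01 and 1.86 CPM. The KD libraries without LPS were above all others, and the other 3 groups overlapped. SDC1 rose with KD without LPS by 1.36 on the log2 scale (standard error 0.29, adjusted p = 0.0039, edgeR) and was 0.29 apart with LPS (standard error 0.52, adjusted p = 0.75, edgeR). LPS in KD cells gave a log2 change of -1.38 (standard error 0.36, adjusted p = 0.021, edgeR), a call that was lost without KD replicate 3 (adjusted p = 0.082), KD LPS replicate 1 (0.066) or KD LPS replicate 2 (0.079). In scramble cells the log2 difference with LPS was -0.30 (standard error 0.43, adjusted p = 0.72, edgeR). At these counts, changes of SDC1 smaller than the spread between libraries were not detectable.

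SDC2, the syndecan of fibroblasts and other mesenchymal cells, was at 153, 147 and 147 CPM in scramble and at 136, 118 and 128 CPM in scramble with LPS. It was at 139, 135 and 129 CPM in KD and at 125, 114 and 132 CPM in KD with LPS. The scramble libraries were the highest and did not overlap with any other group, while the other 3 groups overlapped. The log2 difference was -0.15 in KD without LPS (adjusted p = 0.15), -0.04 in KD with LPS (0.78), -0.22 with LPS in scramble (0.086) and -0.12 with LPS in KD (0.44), none past the threshold in edgeR. With LPS in scramble cells, DESeq2 gave an adjusted p of 0.039 for SDC2.

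SDC3, the syndecan first known from nerve and muscle, was at 133, 165 and 165 CPM in scramble and at 115, 143 and 136 CPM in scramble with LPS. It was at 112, 87.1 and 85.8 CPM in KD and at 88.6, 66.3 and 71.2 CPM in KD with LPS. Each KD library was below each scramble library under the same condition. SDC3 fell with KD by 0.69 on the log2 scale without LPS (standard error 0.12, adjusted p = 0.0010) and by 0.80 with LPS (standard error 0.11, adjusted p = 0.00014), both in edgeR's test. With LPS, libraries overlapped in scramble (-0.22, adjusted p = 0.22) and in KD (-0.34, adjusted p = 0.11). In KD cells, 4 alternatives brought SDC3 past the threshold, with an adjusted p as low as 0.012 (edgeR). Among them, the adjusted p was 0.048 in DESeq2, 0.019 with no filter on low counts and 0.030 without KD LPS replicate 1.

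GPC1, glypican 1, which binds fibroblast growth factors and is widely expressed, was at 358, 406 and 424 CPM in scramble and at 307, 410 and 347 CPM in scramble with LPS. It was at 192, 162 and 172 CPM in KD and at 117, 124 and 91.6 CPM in KD with LPS. The scramble groups overlapped, KD lay below them, and KD with LPS lay below KD. GPC1 fell with KD by 1.17 on the log2 scale without LPS (standard error 0.092, adjusted p = 2.3e-06) and by 1.68 with LPS (standard error 0.12, adjusted p = 2.5e-07) in edgeR's test. LPS lowered GPC1 in KD cells by a log2 change of -0.66 (standard error 0.11, adjusted p = 0.00068, edgeR). In scramble cells the log2 difference with LPS was -0.15 (standard error 0.11, adjusted p = 0.43, edgeR). Mean GPC1 in scramble was 2.26 times that in KD without LPS and 3.20 times that in KD with LPS.

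GPC6, glypican 6, known for a role in growth plate cartilage, was at 194, 185 and 176 CPM in scramble and at 218, 189 and 209 CPM in scramble with LPS. It was at 64.3, 62.2 and 57.5 CPM in KD and at 69.3, 61.2 and 57.9 CPM in KD with LPS. The KD libraries lay in a narrow range far below the scramble libraries, and within each shRNA arm the libraries with and without LPS overlapped. GPC6 fell with KD by 1.59 on the log2 scale without LPS (standard error 0.080, adjusted p = 1.1e-07) and by 1.71 with LPS (standard error 0.093, adjusted p = 1.5e-08) in edgeR's test. The log2 difference with LPS was 0.16 in scramble (adjusted p = 0.22) and 0.04 in KD (adjusted p = 0.89). Mean GPC6 in scramble was 3.02 times that in KD without LPS and 3.27 times that in KD with LPS.

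GPC3, a glypican of fetal tissues, had 15, 0 and 0 counts in scramble, 0 in each scramble library with LPS, 2, 10 and 0 counts in KD, and 0, 19 and 14 counts in KD with LPS. No fold is given for it, since each group held libraries at 0, and its adjusted p ranged from 0.070 in KD with LPS to 0.96 in KD without LPS (edgeR). In KD with LPS its adjusted p was 0.026 in DESeq2, 0.037 with no filter on low counts and 0.034 without KD LPS replicate 1, and 0.066 to 0.16 under the other alternatives that tested it. GPC4, its neighbour on the X chromosome, had 1 count in scramble replicate 3, 1 count in KD LPS replicate 1 and 0 counts in the other 10 libraries. Neither gene was detectable at a stable level at this depth.

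Most adipocyte markers were lower in KD, as were SDC3, GPC1 and GPC6, while calls for markers of other cell types were mixed. Of 8 adipocyte markers, 6 fell with KD without LPS and 6 fell with LPS, and their summed level was 3127 to 4339 CPM in scramble, 3636 to 4195 in scramble with LPS, 624 to 1816 in KD and 503 to 1175 in KD with LPS. Summed stromal markers (9 genes) were at 5961 to 7369, 5662 to 6398, 8272 to 9755 and 9172 to 10509 CPM in the same order of groups. Summed leukocyte markers (8 genes) were at 52.9 to 58.8, 56.4 to 69.2, 31.6 to 37.3 and 27.7 to 32.2 CPM, and summed endothelial markers (5 genes) at 23.6 to 27.1, 15.3 to 17.0, 11.8 to 12.3 and 8.45 to 13.2 CPM. These sums follow their most abundant genes. The marker CD68 averaged 53.6 CPM in scramble and 31.1 in KD, most of the leukocyte sum. DCN, the largest part of the stromal sum, averaged 2671 CPM in scramble and 4904 in KD. The defining markers PTPRC, at 0 to 12 counts, and CDH5, at 0 to 3 counts, were near 0. Of the stromal markers 4 rose and 3 fell with KD, both without and with LPS. Of the leukocyte markers tested, 1 of 6 fell without LPS, and 1 rose and 1 fell with LPS. Of 4 endothelial markers tested, 2 fell without LPS, and 1 rose and 3 fell with LPS. Among all genes, KD called 12.1% higher and 15.1% lower without LPS, and 12.7% higher and 14.2% lower with LPS. The part of these markers in the glypican and syndecan differences was not tested. In bulk RNA, fewer cells of a type cannot be told apart from less RNA per cell. The adipocyte markers ADIPOQ, PLIN1, FABP4 and PPARG fell with KD in these libraries, both without and with LPS. For the same genes the paper reports a rise with KD in cultured cells, by qPCR and western blot, together with more stored lipid. In implants of these cells recovered from mice, the paper reports lower PPARG and CEBPA mRNA with KD. The fall of adipocyte marker mRNA seen here is thus opposite in direction to the paper's result in cultured cells. The cause of this difference was not tested. Within the 3 KD libraries the summed adipocyte markers were at 1816, 1381 and 624 CPM, where SDC3 was at 112, 87.1 and 85.8 CPM, GPC6 at 64.3, 62.2 and 57.5 CPM and GPC1 at 192, 162 and 172 CPM. Within the 3 KD libraries with LPS the markers were at 1175, 805 and 503 CPM, where SDC3 was at 88.6, 66.3 and 71.2 CPM, GPC6 at 69.3, 61.2 and 57.9 CPM and GPC1 at 117, 124 and 91.6 CPM. SDC3 and GPC6 were highest in the library of each KD group that had the most adipocyte marker mRNA, and GPC1 was so without LPS only. The scramble groups differed from this. There the library with the most marker mRNA (4339 CPM without and 4195 with LPS) had the lowest GPC6 (176 and 189 CPM). It had the highest GPC1 (424 and 410 CPM). SDC3 was highest in it with LPS (143 CPM) and level with scramble replicate 2 without LPS (165 CPM each).

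Levels of different genes were compared as CPM per kilobase (kb) of the canonical transcript in GENCODE release 44. In scramble cells GPC1 (107 ± 9.17) and SDC4 (105 ± 8.71) were the most abundant and overlapped, followed by SDC2 (45.1 ± 1.05), SDC3 (29.4 ± 3.54), GPC6 (26.0 ± 1.31) and SDC1 (0.42 ± 0.073), all in CPM per kb (SD, n = 3). SDC3 and GPC6 overlapped in that order, whereas SDC2 lay above both. In KD with LPS the order was SDC4 (467 ± 1.57), SDC2 (37.4 ± 2.80), GPC1 (29.8 ± 4.56), SDC3 (14.4 ± 2.23), GPC6 (8.82 ± 0.82) and SDC1 (0.42 ± 0.15), with SDC2 above GPC1 in each library. GPC1 thus changed place from the top of the order to a level below SDC2.

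The sum over the 8 genes was 312 ± 18.9 CPM per kb in scramble, 336 ± 25.8 in scramble with LPS, 257 ± 10.6 in KD and 558 ± 5.61 in KD with LPS (SD, n = 3 each). SDC4 made up 33.5%, 43.9%, 55.0% and 83.7% of that sum in the same order, and GPC1 made up 34.1%, 28.3%, 18.3% and 5.34%. The sum of the 7 genes without SDC4 was 207 ± 10.2, 188 ± 11.6, 116 ± 8.25 and 90.9 ± 4.68 CPM per kb. The set of carriers therefore held less of the other family members and a larger share of SDC4 in KD than in scramble cells, at the level of mRNA. These sums are descriptions, since they contain the gene that chose the family or follow from the values above.

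**Figure D3:**
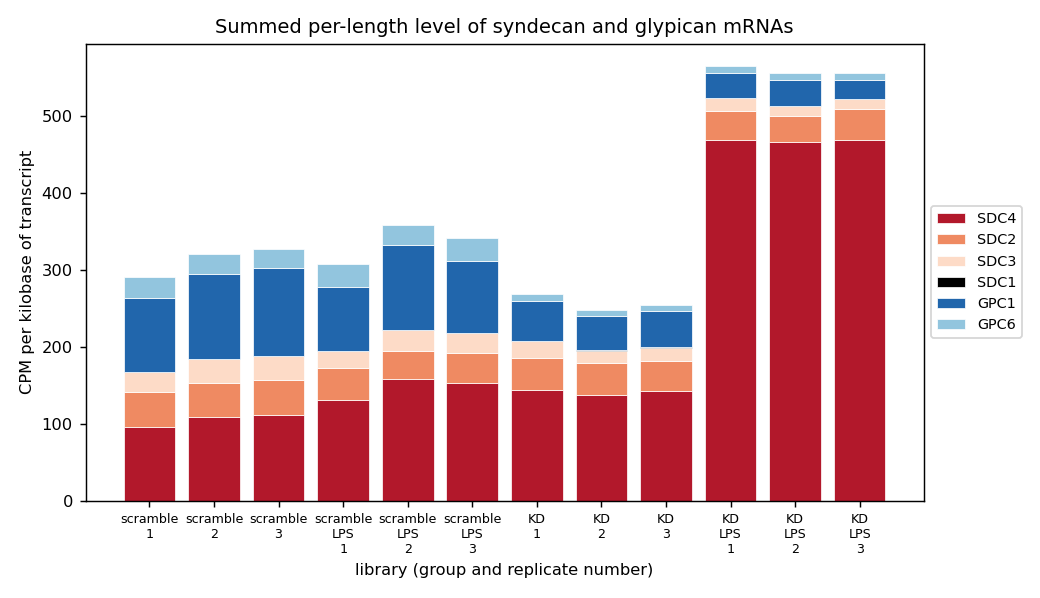
Stacked level of syndecan and glypican mRNAs in CPM per kb of transcript (linear axis from 0) in each of the 12 libraries, with GPC3 and GPC4 left out as too low to draw. SDC4 held 33.5% of the mean sum in scramble and 83.7% in KD with LPS, where GPC1 held 5.34%.

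By Pearson correlation of log2 CPM over the 12 libraries, the genes whose pattern was most like that of SDC4 among 11811 genes averaging 50 counts or more per library were IRAK2 (r = 0.989), ZC3H12C (0.982), TSC22D1 (0.981), IL6 (0.979) and GRAMD1A (0.974). These are descriptions over libraries of 4 groups that share their treatment, and they carry no p. IRAK2, a kinase of the interleukin 1 and Toll-like receptor pathway, averaged 14.6 ± 1.59, 20.2 ± 3.29, 19.5 ± 0.58 and 47.6 ± 2.39 CPM in scramble, scramble with LPS, KD and KD with LPS. ZC3H12C, of the Regnase family of RNA-binding proteins, averaged 26.6 ± 3.49, 37.5 ± 4.26, 38.9 ± 1.41 and 90.1 ± 4.16 CPM. IL6, the cytokine interleukin 6, averaged 52.5 ± 5.23, 132 ± 11.6, 89.7 ± 7.44 and 508 ± 27.1 CPM. TSC22D1, a leucine zipper protein, ranged from 34.5 to 44.7, 51.8 to 53.3, 53.0 to 55.4 and 141 to 151 CPM, and GRAMD1A, a protein of cholesterol transport, averaged 29.8 ± 3.27, 33.8 ± 4.36, 37.6 ± 2.15 and 95.9 ± 5.16 CPM (SD, n = 3 each). Each of the 5 was highest in KD with LPS, which follows from picking them for likeness to SDC4. Only IL6 separated scramble with LPS from KD by its range.

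**Figure D4:**
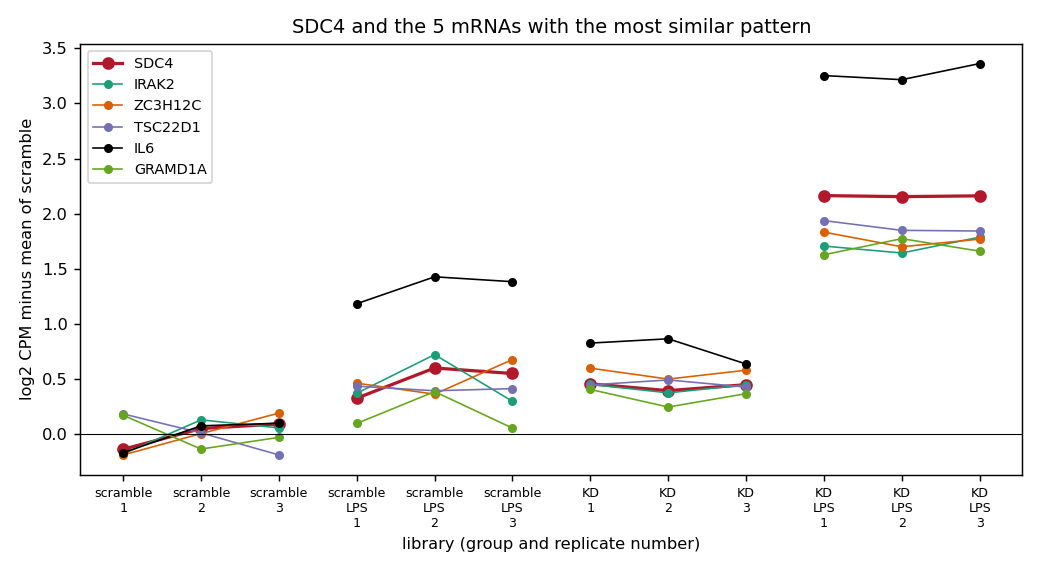
Log2 CPM minus the mean of the scramble libraries for SDC4 and the 5 genes most like it, in the 12 libraries, with lines joining libraries of a group. All 6 were highest in the KD libraries with LPS, which for the 5 follows from how they were picked. There IL6 lay above SDC4 and the other 4 below it.

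Other carriers of heparan sulfate or related chains were followed from a list. Of 9 such genes, of which 9 were tested without and 8 with LPS, 5 fell with KD without LPS and 5 fell with LPS, with a median log2 fold change of -0.35 and -0.46, beside 0.02 and 0.03 over all genes tested. Among all genes, 15.1% were called lower with KD without LPS and 14.2% with LPS. HSPG2, which encodes the basement membrane proteoglycan perlecan, fell with KD by 1.15 (adjusted p = 5.3e-06) and 1.62 (adjusted p = 1.6e-07) on the log2 scale without and with LPS. COL18A1, for collagen XVIII, fell by 2.74 (2.8e-05) and 1.71 (1.4e-05), and TGFBR3, the co-receptor betaglycan, by 0.98 (0.0011) and 0.99 (2.4e-05). SRGN, the granule proteoglycan serglycin, fell by 1.14 (4.7e-06) and 0.40 (0.0088), and NRP1, the co-receptor neuropilin 1, by 0.35 (0.0049) and 0.52 (8.5e-05), all by edgeR. CD44, the hyaluronan receptor, had KD differences of -0.18 (adjusted p = 0.095) and 0.03 (0.77) and AGRN, for agrin, of 0.32 (0.15) and 0.17 (0.49). GPC2, at 0 to 19 counts, and GPC5, at 0 to 7 counts, were near 0.

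LPS raised 3 of 9 of these genes tested in scramble cells, where 5.9% of all genes were called higher, and 3 of 8 in KD cells, where 5.32% were. The median log2 fold change of the list was 0.26 in scramble and 0.63 in KD. CD44 rose by 0.65 in scramble (adjusted p = 0.00019) and 0.86 in KD (2.2e-07), and TGFBR3 by 0.55 (0.0091) and 0.53 (0.046). HSPG2 rose in scramble by 0.46 (0.027) and was -0.02 apart in KD (0.92), whereas SRGN rose in KD by 0.95 (2.8e-05) and was 0.21 apart in scramble (0.13), all by edgeR. The difference between the arms was not tested for these genes.

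Synthesis of the chain starts with a linker sugar on the core protein, is extended by polymerases and is then sulfated from activated precursors. Of 34 genes of these steps, 26 were tested without LPS, where 3 rose and 7 fell with KD (median -0.03), and 27 with LPS, where 5 rose and 5 fell (median 0.06). Over all genes, 12.1% were called higher and 15.1% lower without LPS and 12.7% and 14.2% with LPS, and these shares are also the background of the KD counts of the lists that follow. XYLT1, the xylosyltransferase that starts the chain, was at 425 ± 9.77 CPM in scramble and 220 ± 13.6 in KD, and fell by 0.95 (adjusted p = 2.2e-06) without and 1.24 (3.4e-08) with LPS. UGDH, which makes the uronic acid precursor, was at 337 ± 14.2 CPM in scramble and 121 ± 6.27 in KD, and fell by 1.48 (1.1e-07) and 1.43 (6.3e-08). FAM20B, the xylose kinase, fell by 0.61 (0.00029) and 0.57 (0.0011), and the polymerase subunit EXT2 by 0.46 (0.0013) and 0.52 (0.00028). EXT1, its partner, fell by 0.48 without LPS (0.00075) and was -0.14 apart with LPS (0.23).

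Among the sulfotransferases, HS3ST3B1, a 3-O-sulfotransferase, rose with KD by 1.34 (adjusted p = 1.1e-06) without LPS and by 1.84 (3.4e-08) with LPS in edgeR's test, from 35.5 ± 3.30 CPM in scramble to 89.6 ± 6.92 in KD. HS3ST3A1, its close paralog, had KD differences of -0.07 (0.69) and -0.16 (0.40). Reads of these close copies may be divided between them by the estimate, so their separate values are uncertain. HS6ST3, a 6-O-sulfotransferase at 12 to 173 counts per library, rose with KD under LPS by 2.43 (0.0039) and was 0.95 apart without LPS (0.18). UXS1, which makes UDP-xylose, rose with KD under LPS by 0.44 (0.0025), and SLC35B2, a transporter of the sulfate donor, by 0.28 (0.039).

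LPS called 2 higher and 6 lower of the 27 synthesis genes tested in scramble cells (median -0.10), where 5.9% of all genes were called higher and 8.38% lower, and 2 higher and 4 lower of 26 in KD cells (median 0.00), where 5.32% and 6.03% were. UGDH fell with LPS by 0.54 in scramble (adjusted p = 0.0015) and by 0.50 in KD (0.00078), and HS3ST3A1 fell by 0.62 (0.0015) and 0.72 (0.0017). UXS1 rose by 0.67 (0.00023) and 0.97 (6.2e-06). PXYLP1, the phosphatase that removes the xylose phosphate, fell in scramble by 0.68 (0.021) and was -0.36 apart in KD (0.46), all by edgeR.

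**Figure D5:**
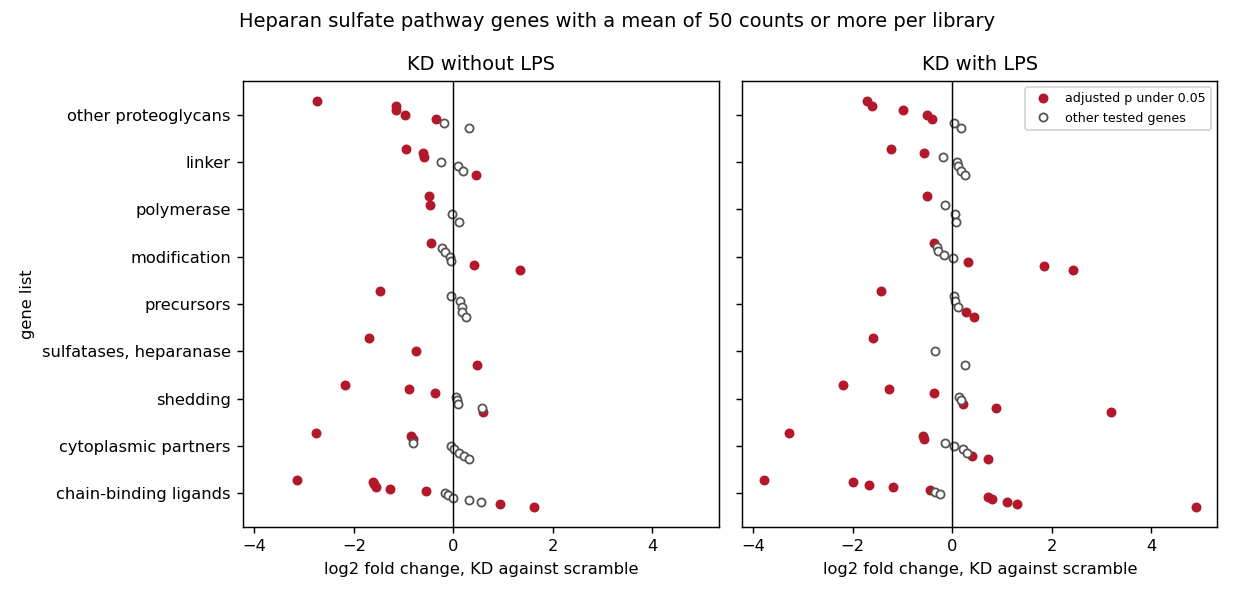
Log2 fold change of KD against scramble, without LPS on the left and with LPS on the right, for genes of 9 lists of the heparan sulfate pathway that averaged 50 counts or more per library. Filled points passed edgeR's test at an adjusted p of 0.05 and open points did not pass, and synthesis genes lay on both sides of 0.

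Enzymes that edit the chain outside the cell were tested for 3 of 4 genes. HPSE, heparanase, which cuts the chain, fell with KD by 1.70 without LPS (adjusted p = 0.00013) and by 1.59 with LPS (0.00066), from 5.94 ± 0.60 to 1.82 ± 0.23 CPM without LPS. The 6-O-sulfatase SULF1 fell by 0.76 without LPS (0.0036) and was -0.34 apart with LPS (0.15), whereas its relative SULF2 rose by 0.49 without LPS (0.027) and was 0.25 apart with LPS (0.058), all by edgeR. With LPS, the largest difference of the 3 was 0.41 for SULF1 in KD cells (adjusted p = 0.12).

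Of 11 genes tied to release of the ectodomains, 10 were tested, with 1 higher and 3 lower with KD without LPS and 3 higher and 3 lower with LPS (medians 0.09 and 0.18), beside 12.1% higher and 15.1% lower of all genes without LPS and 12.7% and 14.2% with LPS. TIMP3, an inhibitor of the sheddases, was at 1050.1 ± 186 CPM in scramble, 479 ± 72.8 in scramble with LPS, 232 ± 22.4 in KD and 104 ± 8.81 in KD with LPS. It fell with KD by 2.17 (adjusted p = 2.3e-07) and 2.20 (7.2e-09), with a log2 change under LPS of -1.12 in scramble (0.00021) and -1.16 in KD (6.4e-07), all by edgeR. Its groups did not overlap in any of the 4 comparisons. ADAMTS1, a secreted protease that can release syndecan 4, fell with KD by 0.88 (2.9e-05) and 1.26 (1.3e-07) and rose with LPS in scramble by 0.40 (0.0049). MMP7, matrilysin, at 0 to 123 counts, rose with KD under LPS by 3.19 (0.00032).

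Of 9 proteins that act at syndecan cytoplasmic tails, 3 fell with KD without LPS, and 2 rose and 3 fell with LPS (medians -0.05 and 0.04). TIAM1, an activator of Rac that binds syndecan 1, was at 24.9 ± 2.70 CPM in scramble and 3.68 ± 0.15 in KD, with a log2 change of -2.75 without LPS (adjusted p = 9.8e-08) and -3.28 with LPS (7.6e-07). PRKCA, the protein kinase C alpha that syndecan 4 binds and activates, fell by 0.85 (2.2e-05) and 0.59 (0.00025). EZR, ezrin, which links membrane proteins to actin, rose with KD under LPS by 0.71 (0.0085) and fell with LPS in scramble by 0.83 (0.012), all by edgeR. LPS called 1 higher and 2 lower in scramble, where 5.9% of all genes were called higher and 8.38% lower. In KD cells LPS called 1 higher and 1 lower, where 5.32% and 6.03% of all genes were.

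Of 16 secreted proteins that bind the chains, 15 were tested without LPS, with 2 higher and 6 lower in KD (median -0.10), and 16 with LPS, with 6 higher and 5 lower (median 0.32). VTN, vitronectin, at 2 to 143 counts per library, fell with KD, with a log2 change of -3.15 without LPS (adjusted p = 0.0011) and -3.79 with LPS (8.6e-05). MDK, the growth factor midkine, at 1 to 162 counts, rose with KD under LPS by 4.90 (4.0e-05), from 0.0913 ± 0.067 to 2.95 ± 1.04 CPM. The scramble libraries with LPS held 1 to 7 MDK counts, after a log2 change with LPS of -3.15 in scramble (0.016). MDK also rose with KD without LPS by 1.62 (0.032), where libraries overlapped. FGF1, fibroblast growth factor 1, fell with KD without LPS by 1.59 (0.00039) and with LPS in scramble by 2.02 (0.00027). It was -0.08 apart in KD with LPS (0.96) and -0.51 apart with LPS in KD (0.78), all by edgeR. LPS called 1 higher and 6 lower of these ligands in scramble (median -0.36), where 5.9% of all genes were called higher and 8.38% lower. In KD cells LPS called 2 higher and 4 lower (median -0.16), where 5.32% and 6.03% of all genes were.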

How the data were processed

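Libraries were prepared from polyA RNA with the Illumina Stranded mRNA kit. Per the labels, the submitters' processing notes name bcl2fastq 2.19, kallisto 0.44.0, DESeq2 1.32.0 and GRCh38. The deposited values are kallisto's estimated counts summed by gene name. Kallisto assigns reads to known transcripts without base-by-base alignment, and the authors left these counts unscaled for depth and length. The annotation release and the strand setting are not given in the sources used here. Values were whole numbers. A row without a gene name held 0.235% to 0.306% of counts and was left out.

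In R 4.3.3, edgeR 4.0.16 scaled libraries by TMM, kept genes whose 6 libraries of a comparison summed to 10 counts or more and applied its quasi-likelihood F test. P-values were adjusted by Benjamini-Hochberg. Standard errors are the log2 fold change divided by the square root of F. CPM were scaled over all 12 libraries. The interaction was fitted on all 12 libraries. Per-length levels used GENCODE release 44, and upstream sequences came from RefSeq, where SDC1, SDC3, SDC4, GPC1, GPC4 and GPC6 had an entry and SDC2 and GPC3 had none.

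The gene family, the gene lists and the tests were chosen with earlier results of these data known. The named genes were all 8 family members, the 9 other proteoglycans, up to 3 called genes per list with the largest log2 fold change among genes averaging 50 counts or more, with groups that did not overlap, and the 5 genes most correlated with SDC4. Alternatives were DESeq2 1.42.0, RLE or no scaling factors, other low-count filters, a fit on 12 libraries, a replicate block and leaving out each library. The tests were tested on simulated data.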

Additional observations from a re-analysis of the deposited data

Results flagged for a closer look

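The difference in the effect of KD with and without LPS was 1.24 on the log2 scale for SDC4. It is listed because the LPS response of SDC4 was larger in KD than in scramble cells. It is also the value by which the family was chosen, so the difference was not tested here. Groups of 3 libraries were too small for a check of single libraries that stand apart.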

How the results depend on the processing

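Of 20 tested results of SDC1, SDC2, SDC3, GPC1 and GPC6, 12 kept their direction and side of the threshold under every alternative run, and the cause of the other changes was not tested. The falls of SDC3, GPC1 and GPC6 with KD, both without and with LPS, and the rise of SDC1 with KD without LPS were among the 12. The interaction of SDC4 ran from 1.16 to 1.30. In LPS in scramble, the calls among the 6 genes went from 0 to 1 with DESeq2, 1 with scaling by library size only and 2 with a replicate block (SDC2, adjusted p = 0.038, and SDC3, 0.038, edgeR). In KD with LPS they went from 3 to 4, by a call of GPC3, with DESeq2, with no filter on low counts and without KD LPS replicate 1. In LPS in KD they went from 2 to 3 with DESeq2, with no filter on low counts and with the replicate block, and leaving out a library gave 1 to 2, with 1 without KD replicate 3 or KD LPS replicate 2. Same-numbered libraries deviated together in 4 of 12 pairs (correlation over 0.1, range -0.10 to 0.25), and 6 of 12 libraries correlated best with their own number, so the numbers were not taken as pairs. Directions turned for values near 0: scaling by library size only gave 0.041 for SDC2 in KD with LPS and -0.016 for GPC6 with LPS in KD. Leaving out a library gave -0.096 to 0.0084 for SDC2 in KD with LPS, -0.039 to 0.62 for SDC1 in KD with LPS, -0.63 to 0.00041 for SDC1 with LPS in scramble, -0.043 to 0.087 for GPC6 with LPS in KD and -0.26 to 0.030 for the interaction of SDC3. Counts of called pathway genes stayed within 1.5 times under the alternatives run. Depth limits SDC1, GPC3 and GPC4, whose counts reached at most 169 per library.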

Other observations

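Of 3 genes of the LPS receptor, 2 were higher in KD than in scramble cells under LPS, where 12.7% of all genes were called higher. TLR4, the receptor itself, averaged 14.3 ± 2.47 CPM in scramble, 7.89 ± 1.01 in scramble with LPS, 13.7 ± 1.38 in KD and 16.1 ± 3.17 in KD with LPS (SD, n = 3 each). TLR4 was higher in KD than in scramble cells with LPS by 1.02 on the log2 scale (adjusted p = 0.00062, edgeR) and fell with LPS in scramble cells by 0.84 (adjusted p = 0.0045, edgeR), with differences of -0.06 (0.80) for KD without LPS and 0.23 (0.43) for LPS in KD. CD14, the co-receptor, at 9 to 117 counts per library, had a log2 difference of 2.69 in KD against scramble with LPS (adjusted p = 0.0014, edgeR) and -1.85 for LPS in scramble (0.026). LY96 differed by -0.26 (0.38) and -0.15 (0.76) in KD against scramble without and with LPS.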
